A study of Homo sapiens with 24 samples.

Results

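A set of 2198 genes was called changed by ABBV-744 over 4 human cancer cell lines and moved the same way in every line, out of 9838 genes tested and 30373 rows in the deposited table. Of these core genes, 1086 were higher and 1112 were lower with the compound. The lines were SKM-1, MV-4-11 and Kasumi-1, which derive from acute myeloid leukaemia, and NCI-H1299, which derives from a non-small cell lung cancer. Each line was treated for 24 h with the vehicle DMSO or with 200 nM ABBV-744, with 2 libraries per line and treatment, so that 8 ABBV-744 libraries were set against 8 DMSO libraries with the cell line as a block. The series also holds 8 libraries of the same lines with 100 nM ABBV-075 for 24 h, and all 24 libraries are poly-A selected RNA. Of the 2198 core genes, 94 are listed under identifiers that did not match a gene symbol.

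A gene was tested where it reached 1 FPKM in at least 2 of the 4 columns of every line. In a line these 2 columns could both be ABBV-744 or both be DMSO. FPKM is the number of fragments per kilobase of transcript, scaled to the size of the library, so it sets levels on a scale per length. Differences are given as ABBV-744 minus DMSO on the log2(FPKM + 1) scale, which understates the change of genes with low values. A gene belonged to the core when the mean difference over the lines passed an adjusted p of 0.05 (limma, two-sided, Benjamini-Hochberg adjustment over all 9838 genes) and the difference had 1 sign in all 4 lines. Called higher and core describe 1239 and 1086 genes, or 12.6 and 11.0 percent of those tested. For the lower direction, 1298 genes were called and 1112 were core, or 13.2 and 11.3 percent. Without the threshold, 3518 genes had 1 sign in all 4 lines.

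BET proteins, BRD2 and BRD3 among them, bind acetylated histones through a pair of bromodomains and help RNA polymerase II to pass from initiation to elongation, in part through the kinase complex P-TEFb. ABBV-744 is selective for the second of these bromodomains, while ABBV-075 (mivebresib) binds both. P-TEFb is held inactive by HEXIM1 and the 7SK RNA, and HEXIM1 RNA is widely used as a readout of BET inhibition. In myeloid leukaemia, BET proteins are best known for sustaining MYC and BCL2 at large enhancers.

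Nothing in the labels tells if paired libraries of a group are separate cultures, so p-values cover only the spread of these samples, which may be technical. Depth is unknown because no counts are given, and in bulk RNA fewer cells of a type and less RNA per cell cannot be told apart. The summed level of 15 blood cell markers was 3285 to 7414 FPKM in the leukaemia lines and 7.99 to 12.5 in NCI-H1299, and that of 19 carcinoma markers was 3620 to 3697 FPKM in NCI-H1299 and 65.4 to 380 in the leukaemia lines. The second SKM-1 DMSO library stood apart. The SD across genes of the log2 difference between the SKM-1 DMSO libraries was 0.669, against 0.169 to 0.253 in the other 7 pairs, and mitochondrial transcripts held 22.3% of its FPKM sum against 9.13% in the first library. Without it the core held 1348 higher and 1622 lower genes. No core gene was core in the opposite direction in that or any other setting tried, a count that leaves out genes whose sign alone changed. With a library or a line left out such a switch could not occur, because the other lines kept their differences.

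Core genes moved by modest amounts in most cases, and least in the lung cancer line. The median difference of the 1086 higher genes was 0.37, from 0.17 to 2.57, and that of the 1112 lower genes was -0.40, from -0.18 to -1.19, against a median of 0.01 over all tested genes. Only 19 higher and 9 lower genes reached a 2-fold mean change on this scale. The median of the higher genes was 0.50 in SKM-1, 0.36 in MV-4-11, 0.42 in Kasumi-1 and 0.24 in NCI-H1299, and that of the lower genes was -0.46, -0.30, -0.55 and -0.24 in the same order. NCI-H1299 was the line with the smallest change for 563 of the higher and 514 of the lower genes. SKM-1 had the largest change for 493 higher genes and Kasumi-1 for 583 lower ones. These medians describe genes chosen by the same differences and carry no test.

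**Figure D1:**
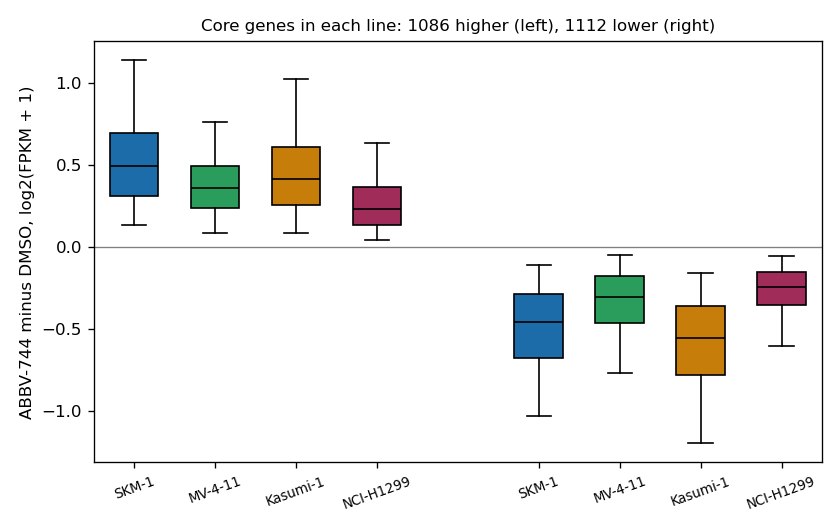
Difference between ABBV-744 and DMSO on the log2(FPKM + 1) scale for the 1086 higher (left) and 1112 lower (right) core genes in each line. Boxes span the quartiles with the median as a line, and whiskers run from the 5th to the 95th percentile. The NCI-H1299 boxes lie closest to 0 in both directions, with medians of 0.24 and -0.24.

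The libraries themselves separated in many core genes. Over all tested genes, the ABBV-744 and DMSO libraries did not overlap in any of the 4 lines, and lay the same way in each, for 584 higher genes (5.94%) and 569 lower genes (5.78%). Of the core, 567 higher and 547 lower genes met this, and a further 412 and 459 were separated in 3 of the 4 lines. Because core membership rests on these same libraries, the counts are a description. When each line was tested on its own with 2 libraries against 2, only 17 higher and 4 lower core genes were called in all 4 lines. The 4 lower ones were DBNDD2, METAP1D, STC2 and TRIP6, and 10 of the 17 higher ones were clustered histone genes, with NEAT1 and SERTAD1 among the others.

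Histone genes of the large clusters led the response. The list of clustered histone genes had 33 members in the deposited values, of which 13 were tested. Of these 13, 12 were core and higher, against 11.0% of tested genes, and none was lower, with a median difference of 1.56. HIST2H2BE, HIST1H2BC, HIST1H2BG and HIST1H2AG passed the filter in at least 1 line through ABBV-744 libraries alone. The filter thus favoured members that rose, and the count of 12 partly follows from it. Transcripts of clustered histone genes encode the core and linker histones that package newly copied DNA. Most of them normally lack a poly-A tail, so these libraries measure only their polyadenylated part. HIST1H2AC was at 9.04 and 11.9 FPKM in the SKM-1 libraries with DMSO and 122 and 111 with ABBV-744, and at 4.88 and 3.55 against 22.8 and 20.7 in MV-4-11. The same pairs were 1.51 and 2.32 against 21.98 and 19.4 FPKM in Kasumi-1 and 15.7 and 16.6 against 65.95 and 58.9 in NCI-H1299. Every ABBV-744 library lay above every DMSO library of its line, and the mean difference was 2.57 ± 0.17 (SE, 8 libraries per treatment, adjusted p = 3.29e-07). HIST1H2AC encodes a form of histone H2A. In SKM-1, HIST1H2BD measured 1.996 and 2.01 FPKM with DMSO and 18.4 and 20.5 with ABBV-744, and in MV-4-11 1.58 and 2.26 and then 11.3 and 10.1. Kasumi-1 had 1.01 and 1.16 FPKM with DMSO and 11.5 and 13.1 with the compound, and NCI-H1299 8.08 and 8.30 and then 32.5 and 32.6. This H2B gene was again separate in all lines, with a mean difference of 2.33 ± 0.12 (SE, adjusted p = 1.13e-08). The HIST2H2BE values with DMSO and then with ABBV-744 were 1.57 and 1.78 FPKM and 15.96 and 16.1 in SKM-1 and 1.14 and 1.37 and 5.89 and 5.88 in MV-4-11. They were 0.769 and 0.594 FPKM and 5.44 and 5.09 in Kasumi-1, and 1.60 and 1.84 and 6.52 and 6.25 in NCI-H1299. HIST2H2BE, another H2B gene, was 1 of the core genes with low values in DMSO, at 0.594 to 1.84 FPKM, and rose by 1.91 ± 0.13 (SE).

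The remaining clustered histone genes gave the same direction in every line. HIST2H4A differed by 2.24, the linker histone gene HIST1H1C by 1.65, HIST2H2AA4 by 1.60, HIST1H2BK by 1.56 and HIST1H2BC by 1.41. HIST1H2AG and HIST1H2BG followed with 1.01 and 0.99, and HIST2H2BC, which was not on the list, had 1.18. The member that did not pass was HIST2H2AC, at 0.37 ± 0.16 (SE, adjusted p = 0.0916). Several of these genes have near-identical copies, such as HIST2H4A and HIST2H2AA4, and the counting behind the FPKM values could split reads among copies, so the level of any 1 copy is uncertain. The list also had 12 core higher genes without the second SKM-1 DMSO library, without SKM-1 and without Kasumi-1. Histone genes outside the clusters were counted apart. Of 10 tested replacement histone genes, 5 were core and higher, against 11.0% of tested genes, and none lower, with a median of 0.32. The 5 were H1F0 (1.04), H1FX (0.81), H2AFJ (0.78), H2AFV (0.58) and H2AFX (0.51), the last of which lies outside the naming rule and was added after its value was seen. In this list 1 member was core and lower without the second SKM-1 DMSO library.

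The promoters of these histone genes share sequence features. The choice of core genes did not use sequence. Histone genes outside the core were not compared, so the shares cannot be tied to the response. Promoter sequences were taken from RefSeq (GRCh38.p14), as the 250 bases before each start site, and 10 of 13 core clustered histone genes, HIST2H2BC included, matched an entry. The coordinates are those of the RefSeq table, since the build behind the deposited values is not given in the sources used here. Motifs were searched on both strands. The TATA box was searched as TATAAA, and it was found in 7 of the 10 histone promoters, against 4.47% of the 7785 tested genes with a promoter entry and 11.1% of all 27305 promoters. The CCAAT box, searched by those 5 letters, was found in 9 of the 10, in 36.6% of tested genes and in 9021 of all promoters. The octamer, ATTTGCAT, was found in 6 of the 10, in 1.09% of tested genes and in 1.66% of all promoters. Matches of different motifs share no base in the promoters shown. The GC content of the histone promoters had a median of 43.2%, against 65.2% for tested genes. The sequences of HIST1H2AC (named H2AC6 in RefSeq) at chr6:26123922-26124171 (plus strand), HIST1H2BD (H2BC5) at chr6:26157871-26158120 (plus strand) and HIST2H2BE (H2BC21) at chr1:149886683-149886932 (minus strand) are shown because they are 3 of the 4 core genes with the largest rise, with all motif matches in capitals, 5′ to 3′ on the strand of the gene.
HIST1H2AC: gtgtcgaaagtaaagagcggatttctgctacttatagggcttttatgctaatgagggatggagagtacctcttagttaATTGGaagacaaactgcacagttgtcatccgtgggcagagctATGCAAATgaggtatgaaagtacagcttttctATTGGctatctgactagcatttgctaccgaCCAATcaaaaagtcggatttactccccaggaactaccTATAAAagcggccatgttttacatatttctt
HIST1H2BD: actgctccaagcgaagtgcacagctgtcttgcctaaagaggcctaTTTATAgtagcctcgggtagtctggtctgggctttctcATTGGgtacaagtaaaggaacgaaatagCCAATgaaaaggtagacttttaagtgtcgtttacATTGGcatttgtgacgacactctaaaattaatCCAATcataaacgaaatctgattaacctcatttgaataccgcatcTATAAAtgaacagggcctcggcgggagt
HIST2H2BE: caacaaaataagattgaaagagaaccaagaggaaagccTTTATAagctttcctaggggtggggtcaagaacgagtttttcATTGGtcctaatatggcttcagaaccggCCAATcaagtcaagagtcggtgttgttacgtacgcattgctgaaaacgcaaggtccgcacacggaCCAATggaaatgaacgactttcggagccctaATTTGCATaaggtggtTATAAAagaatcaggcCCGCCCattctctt
Each of the 3 held a TATA box close to the start site, at positions -31, -28 and -30 counted from the start site to the first base of the match on the strand of the gene. HIST1H2AC and HIST2H2BE also held the octamer, at -130 and -46, while HIST1H2BD held none in this window. A match describes letters and not a bound site.

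HEXIM1 and BRD2 are genes of the BET and P-TEFb system that were core and higher. The list of BET response markers known to rise, which was written from earlier knowledge of BET inhibitors and with results of these data known, had 10 tested members, and all 10 were core and higher, with a median of 1.35. The list holds 5 of the clustered histone genes, so it is no separate evidence. With DMSO, HEXIM1 read 7.33 and 12.4 FPKM in SKM-1, 9.10 and 9.21 in MV-4-11, 16.5 and 13.9 in Kasumi-1 and 12.4 and 11.6 in NCI-H1299. With ABBV-744 it read 18.1 and 18.5, 19.3 and 19.7, 28.1 and 27.2 and 18.7 and 18.9 FPKM in the same order of lines. HEXIM1, the inhibitor of P-TEFb, was higher in all 4 lines without overlap, by 0.83 ± 0.09 (SE, adjusted p = 3.19e-05), although the first SKM-1 DMSO library lay well below the second. BRD2 was at 80.2 and 88.8 FPKM in the SKM-1 libraries with DMSO and 106 and 109.8 with ABBV-744, and at 68.7 and 74.3 against 99.8 and 102 in MV-4-11. The same pairs were 64.3 and 63.1 against 79.5 and 78.9 FPKM in Kasumi-1 and 125 and 122 against 211 and 218 in NCI-H1299. BRD2 rose by 0.49 ± 0.08 (SE), with its largest difference in NCI-H1299 (0.79). BRD3 had 0.07 ± 0.08 (SE, adjusted p = 0.544) and was not called. Of 8 tested BET proteins and partners, BRD2 was the only core gene. Over all tested genes 11.0% were core and higher and 11.3% core and lower. The list median was -0.13, and 3 members were core and lower when the second SKM-1 DMSO library was left out.

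Other parts of the elongation machinery were counted as a list. Among 25 tested genes of P-TEFb, 7SK and elongation, 5 were core and higher and 2 were core and lower, against 11.0% and 11.3% of tested genes, with a median of 0.01. CDK9, the kinase of P-TEFb, rose by 0.39 ± 0.08 (SE) with separate libraries in all 4 lines, and the elongation factor gene SUPT6H by 0.23 ± 0.06, while ELL3, which encodes an elongation factor of the ELL family, changed by -0.37 ± 0.07. SUPT6H lies outside the naming rule and was added after its value was seen, and its call was lost in 4 settings, with library sums made equal with or without mitochondrial transcripts, without MV-4-11 and without NCI-H1299. Of 44 tested subunits of RNA polymerase II and Mediator, 9 were core and higher and none lower, with a median of 0.08. POLR2A, the largest polymerase subunit, differed by 0.50 ± 0.13, with 0.01 in SKM-1 and 1.02 in MV-4-11, POLR2L, a small shared subunit, by 0.57 ± 0.13 and the Mediator kinase CDK19 by 0.36 ± 0.08. Without the second SKM-1 DMSO library, 9 members were higher and 3 lower. Without Kasumi-1, the elongation list had 3 higher and 1 lower and the polymerase and Mediator list 5 and 0.

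The promoter of HEXIM1 lies at chr17:45148225-45148474 (plus strand) and is shown because HEXIM1 is the reference gene of BET inhibition, with its motif matches in capitals.
HEXIM1: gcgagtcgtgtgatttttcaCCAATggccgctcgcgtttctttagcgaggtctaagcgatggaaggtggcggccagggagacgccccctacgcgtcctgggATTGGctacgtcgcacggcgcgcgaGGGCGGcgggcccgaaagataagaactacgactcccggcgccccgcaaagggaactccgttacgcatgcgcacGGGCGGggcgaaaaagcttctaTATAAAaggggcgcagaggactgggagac
It held a TATA box at -29, CCAAT boxes at -230 and -149, and GC boxes, searched as GGGCGG, at -124 and -51. GC boxes were found in 69.9% of tested genes. Over the 846 core higher genes with a promoter entry, the TATA box was found in 5.91%, and in 5.14% of the 836 that remain without the clustered histone genes, against 4.47% of tested genes.

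Genes that hold back the cell cycle and genes of the p53 pathway were among the core higher genes. CDKN1A encodes the cyclin-dependent kinase inhibitor p21, a classic p53 target. In SKM-1, CDKN1A measured 20.5 and 14.5 FPKM with DMSO and 78.98 and 89.2 with ABBV-744, and in MV-4-11 44.97 and 53.3 and then 78.8 and 90.04. Kasumi-1 had 0.804 and 0.906 FPKM with DMSO and 2.82 and 2.66 with the compound, and NCI-H1299 24.03 and 25.1 and then 37.6 and 38.4. All 4 lines were separate, including NCI-H1299, which lacks p53, with a mean difference of 1.15 ± 0.17 (SE, adjusted p = 0.000322) and the largest value in SKM-1 (2.22). The TP53INP1 values with DMSO and then with ABBV-744 were 1.42 and 2.69 FPKM and 7.68 and 7.17 in SKM-1 and 2.26 and 2.03 and 7.20 and 6.77 in MV-4-11. They were 6.48 and 6.33 FPKM and 20.6 and 18.3 in Kasumi-1, and 3.57 and 3.33 and 4.84 and 5.35 in NCI-H1299. TP53INP1, a stress protein induced by p53, rose by 1.19 ± 0.13 (SE), with 0.45 in NCI-H1299 and 1.34 to 1.49 in the leukaemia lines. Of 18 tested p53 targets, 7 were core and higher, against 11.0% of tested genes. In the lower direction 1 was core, against 11.3% of tested genes: AEN (-0.64), which encodes an apoptosis-linked nuclease. TP53I3, another member, had 0.87. Of 6 tested CDK inhibitor genes, 3 were core and higher, against the same 11.0%: CDKN1A, CDKN2D (0.65) and CDKN2C (0.32), and without Kasumi-1 only 1 was. In CDKN2D the difference was 0.01 in NCI-H1299 and 1.32 in SKM-1. In Kasumi-1, CDKN1A and CDKN2D passed the filter through their ABBV-744 libraries alone.

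With DMSO, SERTAD1 read 2.52 and 2.41 FPKM in SKM-1, 5.49 and 7.96 in MV-4-11, 2.61 and 2.66 in Kasumi-1 and 33.7 and 31.3 in NCI-H1299. With ABBV-744 it read 5.99 and 6.54, 15.3 and 18.04, 6.70 and 7.39 and 52.6 and 56.6 FPKM in the same order of lines. SERTAD1 encodes a regulator that binds CDK4, and its libraries did not overlap in any line. Its mean difference was 1.04 ± 0.08 (SE, adjusted p = 2.32e-06), with 0.73 to 1.21 across lines. NEAT1 was at 21.5 and 30.4 FPKM in the SKM-1 libraries with DMSO and 78.8 and 76.2 with ABBV-744, and at 15.2 and 13.9 against 23.2 and 28.98 in MV-4-11. The same pairs were 11.9 and 7.75 against 22.4 and 19.6 FPKM in Kasumi-1 and 16.7 and 17.4 against 40.5 and 40.2 in NCI-H1299. NEAT1, the long non-coding RNA that scaffolds nuclear paraspeckles, was higher by 1.15 ± 0.11 (SE, adjusted p = 1.49e-05). In SKM-1, SERPINI1 measured 2.92 and 3.83 FPKM with DMSO and 5.61 and 4.05 with ABBV-744, and in MV-4-11 1.19 and 0.945 and then 4.78 and 3.81. Kasumi-1 had 0.855 and 0.878 FPKM with DMSO and 7.82 and 5.86 with the compound, and NCI-H1299 3.38 and 3.58 and then 5.20 and 4.35. SERPINI1, a serine protease inhibitor gene used as a BET response marker, rose by 1.05 ± 0.20 (SE), with 2.06 in Kasumi-1 but 0.41 in SKM-1 and 0.36 in NCI-H1299.

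Further large rises were in ABCA7 (1.22), a lipid transporter, SAT1 (1.02), the rate-limiting enzyme of polyamine breakdown, and PGAM2 (0.98), the muscle form of phosphoglycerate mutase. Each had separate libraries in all 4 lines. SAT1 was uneven in the SKM-1 DMSO libraries, at 16.3 and 39.7 FPKM, and both stayed below the ABBV-744 values of 65.7 and 54.7. ARRDC3, an alpha-arrestin, rose by 0.40 ± 0.10 (SE). Of 3 tested alpha-arrestins, 2 were core and higher, against 11.0% of tested genes, though none without Kasumi-1.

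**Figure D2:**
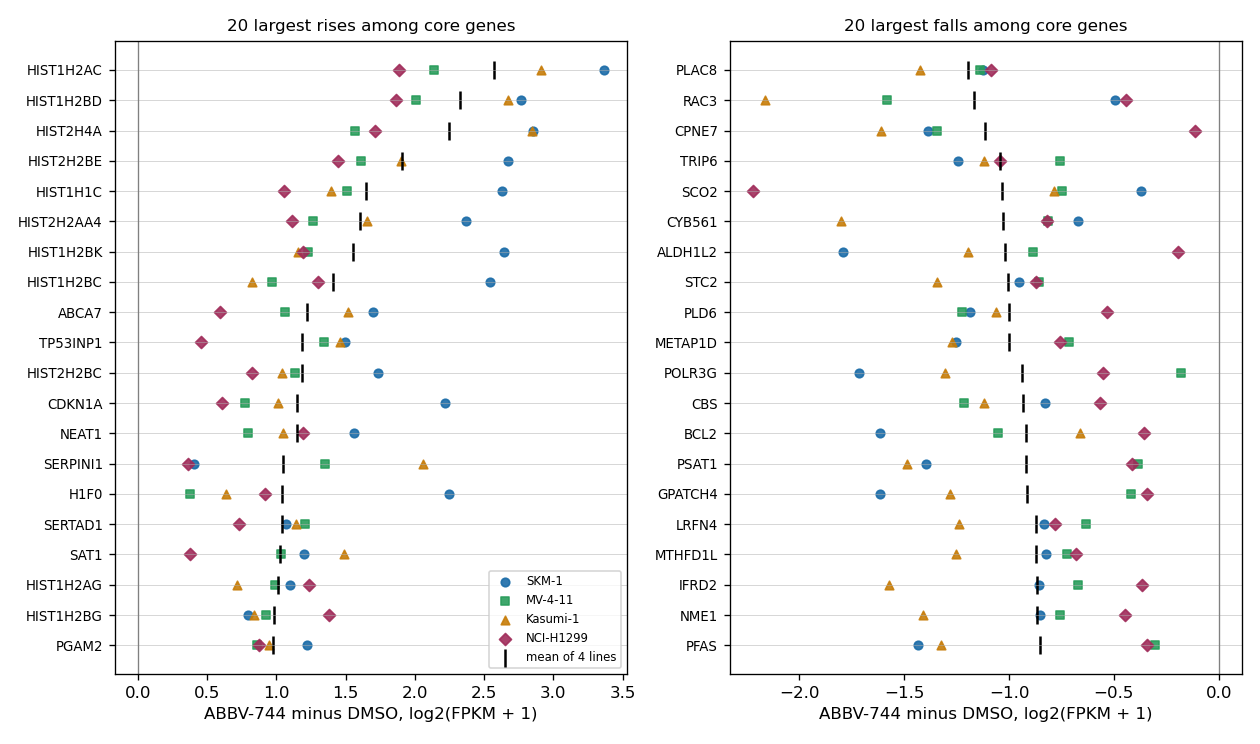
Difference between ABBV-744 and DMSO on the log2(FPKM + 1) scale in each line (coloured symbols) and as the mean of 4 lines (black bar) for the 20 core genes with the largest rise (left) and the largest fall (right). Histone genes fill the first 8 places on the left, and SCO2 stands out on the right by its NCI-H1299 value of -2.22.

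Lysosome and autophagy genes passed in part. Of 35 tested members, 14 were core and higher, against 11.0% of tested genes, none was core and lower, and 21 were not core. The list median was 0.25, and the count was 16 without the second SKM-1 DMSO library and 12 without Kasumi-1. NEU1, the lysosomal sialidase, rose by 0.66 ± 0.11 (SE), GABARAPL2 and GABARAPL1, which coat autophagosomes, by 0.59 ± 0.10 and 0.51 ± 0.08, and the autophagy receptor SQSTM1 by 0.57 ± 0.09. All 4 of these genes had separate libraries in every line. In NCI-H1299 the SQSTM1 difference was 0.83, while GABARAPL1 and GABARAPL2 had 0.16 and 0.12 there.

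Interferon and immediate early genes gave short lists. Of 11 tested interferon response genes, 3 were core and higher, against 11.0% of tested genes. Among them were IRF7 (0.94 ± 0.14, SE), a regulator of type I interferon genes, and the signal transducer STAT2 (0.51 ± 0.08). IFI6 was called over the lines (0.60 ± 0.17) but had -0.11 in NCI-H1299, and so was not core. Of 12 tested AP-1 and immediate early genes, 3 were core and higher, against the same 11.0%, namely IER2 (0.51), JUNB (0.51) and IER5 (0.41), and none was lower. Of 14 tested negative feedback genes of signalling, SOCS2 (-0.36) alone was core, and it was lower, against 11.3% of tested genes. Without SKM-1, the interferon list had 3 higher and 2 lower core genes, and the immediate early list 2 higher and 1 lower.

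Among enzymes that write or erase histone acetylation, 4 of 23 tested genes were core and higher and 1 was core and lower. The shares over all tested genes were 11.0% and 11.3%. The histone acetyltransferase paralogs moved apart. KAT2A changed by -0.72 ± 0.13 (SE) and KAT2B rose by 0.43 ± 0.09, each with separate libraries in all 4 lines, although KAT2B had only 0.05 in NCI-H1299. HDAC5, a class II deacetylase, rose by 0.56 ± 0.14. EP300, a histone acetyltransferase that was added after its value was seen, rose by 0.22 ± 0.06, and its call was lost in the same 4 settings as that of SUPT6H. Without the second SKM-1 DMSO library the list had 7 higher and 3 lower genes, and without Kasumi-1 it had 2 and 2.

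Genes of ribosome biogenesis and other MYC targets were prominent among the core lower genes. Of 42 tested genes of ribosome biogenesis and MYC targets, 26 were core and lower, against 11.3% of tested genes, and none was higher. Over the lines 33 were called lower, against 13.2% of tested genes. Their median difference was -0.48, with -0.66 in SKM-1, -0.32 in MV-4-11, -0.90 in Kasumi-1 and -0.12 in NCI-H1299. The core count was 29 without the second SKM-1 DMSO library and 13 without Kasumi-1. The NME1 values with DMSO and then with ABBV-744 were 314 and 238 FPKM and 144 and 158 in SKM-1 and 199 and 226 and 131 and 119 in MV-4-11. They were 332 and 324 FPKM and 108 and 140.2 in Kasumi-1, and 383 and 366 and 273 and 276 in NCI-H1299. NME1, a nucleoside diphosphate kinase and a known MYC target, was lower without overlap in every line, by -0.87 ± 0.12 (SE, adjusted p = 0.000175). Nucleolar proteins followed, with LYAR at -0.81 ± 0.18, NOP16 at -0.75 ± 0.18 and PPAN at -0.73 ± 0.14. GPATCH4, IFRD2 and POLR3G, a subunit of RNA polymerase III, had -0.92, -0.87 and -0.94 and were among the 20 largest falls. The SKM-1 DMSO libraries read 63.3 and 210 FPKM for GPATCH4, 5.75 and 20.8 for POLR3G and 67.8 and 189 for LYAR. In each of these the second library was the higher, while in NOP16 and IFRD2 it was the lower. None of 48 tested cytosolic ribosomal protein genes was core or called, and their median was 0.12.

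MYC itself was not in the core. With DMSO, MYC read 309 and 178 FPKM in SKM-1, 178 and 174 in MV-4-11, 265 and 229.7 in Kasumi-1 and 107 and 99.97 in NCI-H1299. With ABBV-744 it read 121 and 139, 129.97 and 129.6, 125 and 118 and 104 and 106 FPKM in the same order of lines. The libraries were separate and lower in the 3 leukaemia lines and overlapped in NCI-H1299, where the difference was 0.02. Over the lines MYC was called, at -0.57 ± 0.14 (SE, adjusted p = 0.00683), and without Kasumi-1 it was not (adjusted p = 0.0924). The list of BET response markers known to fall had 5 tested members, of which 4 were called lower over the lines but only BCL2 was core. Over all tested genes, 13.2% were called lower and 11.3% were core and lower. CDK6 had -1.21 in SKM-1, -0.71 in MV-4-11, 0.03 in Kasumi-1 and -0.38 in NCI-H1299, and CDK4 had 0.06 in NCI-H1299 against -1.20 to -0.68 in the leukaemia lines. MYB had -0.36 ± 0.16 (SE, adjusted p = 0.108). CD180 was not tested because its values were under 1 FPKM in NCI-H1299, and CCR2 because its values were under 1 FPKM in Kasumi-1 and NCI-H1299.

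BCL2 was at 26.1 and 25.9 FPKM in the SKM-1 libraries with DMSO and 7.96 and 7.64 with ABBV-744, and at 39.8 and 36.3 against 17.9 and 17.7 in MV-4-11. The same pairs were 10.1 and 9.46 against 6.36 and 5.31 FPKM in Kasumi-1 and 1.49 and 1.12 against 0.899 and 0.699 in NCI-H1299. BCL2, the anti-apoptotic protein, was lower in all 4 lines without overlap, by -0.92 ± 0.13 (SE, adjusted p = 0.000233), and its level in NCI-H1299 was near the 1 FPKM limit. Of 4 tested anti-apoptotic family members, BCL2 and BCL2L1 (-0.34 ± 0.10) were core and lower, against 11.3% of tested genes. BCL2L1 lost its call without MV-4-11 and without Kasumi-1. Of 10 tested pro-apoptotic members, 2 were core and higher, against 11.0% of tested genes, among them BNIP3L (0.38 ± 0.08), a mitophagy receptor. Without the second SKM-1 DMSO library that list had 1 higher and 1 lower core gene, without SKM-1 it had 2 and 2, and without Kasumi-1 it had 1 and 0.

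Enzymes of amino acid metabolism and other ATF4 targets were among the core lower genes. Of 19 tested targets of ATF4, the factor of the amino acid stress response, 9 were core and lower, against 11.3% of tested genes, and none higher, with a median of -0.41, and 7 were core and lower without Kasumi-1. In SKM-1, STC2 measured 24.2 and 17.7 FPKM with DMSO and 9.72 and 10.8 with ABBV-744, and in MV-4-11 2.96 and 3.35 and then 1.29 and 1.29. Kasumi-1 had 9.15 and 7.80 FPKM with DMSO and 2.61 and 2.84 with the compound, and NCI-H1299 4.36 and 3.52 and then 1.90 and 1.49. STC2, a secreted glycoprotein, was separate in every line and was called in each line alone, with a mean of -1.01 ± 0.09 (SE, adjusted p = 4.59e-06). The PSAT1 values with DMSO and then with ABBV-744 were 109.5 and 85.5 FPKM and 35.7 and 36.7 in SKM-1 and 319.95 and 284 and 235 and 226 in MV-4-11. They were 32.7 and 34.9 FPKM and 11.6 and 11.3 in Kasumi-1, and 87.4 and 86.8 and 66.5 and 63.8 in NCI-H1299. PSAT1, an enzyme of serine synthesis, changed by -0.92 ± 0.15 (SE), with -1.49 in Kasumi-1 and -0.41 in NCI-H1299. With DMSO, CBS read 52.2 and 33.2 FPKM in SKM-1, 20.1 and 25.5 in MV-4-11, 2.99 and 2.80 in Kasumi-1 and 21.3 and 19.9 in NCI-H1299. With ABBV-744 it read 20.9 and 25.3, 8.38 and 10.1, 0.700 and 0.892 and 13.8 and 13.3 FPKM in the same order of lines. CBS, which starts the conversion of homocysteine to cysteine, changed by -0.93 ± 0.11 (SE). The mitochondrial folate enzymes MTHFD1L and ALDH1L2 had -0.87 and -1.02, the purine synthesis enzyme PFAS had -0.85, and TRIB3, a pseudokinase induced by ATF4, had -0.82. CBS, MTHFD1L and PFAS are not members of the ATF4 list.

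The largest falls also held genes outside these lists. PLAC8 was at 149 and 90.8 FPKM in the SKM-1 libraries with DMSO and 55.1 and 50.5 with ABBV-744, and at 895 and 840.2 against 423 and 367 in MV-4-11. The same pairs were 46.2 and 54.6 against 17.9 and 18.2 FPKM in Kasumi-1 and 65.1 and 59.5 against 34.8 and 23.7 in NCI-H1299. PLAC8, a small cysteine-rich protein, had the largest fall of all core genes, -1.19 ± 0.11 (SE, adjusted p = 5.49e-06), with -1.09 to -1.43 across the lines. In SKM-1, TRIP6 measured 21.9 and 21.2 FPKM with DMSO and 7.55 and 9.59 with ABBV-744, and in MV-4-11 37.1 and 44.8 and then 23.9 and 23.4. Kasumi-1 had 12.6 and 11.3 FPKM with DMSO and 4.78 and 5.15 with the compound, and NCI-H1299 37.2 and 34.9 and then 16.1 and 17.8. TRIP6, a LIM domain protein of focal adhesions, was separate in every line and changed by -1.04 ± 0.08 (SE, adjusted p = 1.17e-06). The METAP1D values with DMSO and then with ABBV-744 were 11.00 and 10.3 FPKM and 4.15 and 3.64 in SKM-1 and 8.45 and 8.19 and 4.29 and 5.11 in MV-4-11. They were 5.04 and 4.29 FPKM and 1.55 and 1.15 in Kasumi-1, and 5.67 and 5.59 and 3.14 and 2.71 in NCI-H1299. METAP1D, the mitochondrial methionine aminopeptidase, changed by -0.999 ± 0.09 (SE, adjusted p = 6.67e-06). PLD6, a mitochondrial phospholipase, CYB561, an electron carrier, and CPNE7, a copine, had -1.002, -1.03 and -1.11, and CPNE7 had only -0.11 in NCI-H1299. In LRFN4, SAMD10, DBNDD2 and ALKBH8 the line with the least change still had -0.63, -0.66, -0.61 and -0.61.

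RAC3 and SCO2 were core and lower but their libraries overlapped in SKM-1. With DMSO, RAC3 read 45.6 and 11.6 FPKM in SKM-1, 14.5 and 20.5 in MV-4-11, 72.9 and 58.4 in Kasumi-1 and 29.5 and 28.4 in NCI-H1299. With ABBV-744 it read 15.2 and 17.3, 4.74 and 5.49, 12.3 and 15.4 and 22.7 and 19.6 FPKM in the same order of lines. RAC3, a small GTPase, had a mean of -1.17 ± 0.27 (SE), and its SKM-1 DMSO libraries lay on either side of the ABBV-744 ones. SCO2 was at 10.9 and 4.28 FPKM in the SKM-1 libraries with DMSO and 4.50 and 5.85 with ABBV-744, and at 11.6 and 11.9 against 5.86 and 7.37 in MV-4-11. The same pairs were 18.04 and 15.5 against 9.88 and 8.70 FPKM in Kasumi-1 and 10.01 and 9.41 against 0.311 and 3.01 in NCI-H1299. SCO2, a copper chaperone of cytochrome oxidase, had -1.03 ± 0.27 (SE), and its NCI-H1299 libraries with ABBV-744 differed from each other.

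The promoter of TRIP6 lies at chr7:100867137-100867386 (plus strand) and is shown as that of a gene called lower in each line alone, with motif matches in capitals.
TRIP6: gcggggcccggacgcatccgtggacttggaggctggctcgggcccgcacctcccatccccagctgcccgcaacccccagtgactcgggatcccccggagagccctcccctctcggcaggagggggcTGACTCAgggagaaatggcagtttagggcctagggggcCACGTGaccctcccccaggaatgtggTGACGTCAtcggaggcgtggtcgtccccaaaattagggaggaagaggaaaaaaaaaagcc
It held an E-box, searched as CACGTG, at -86. An AP-1 motif, searched as TGACTCA and found in 1.93% of tested genes, lay at -124. A cyclic AMP response element, searched as TGACGTCA and found in 3.24%, lay at -60. The E-box was found in 11.0% of the 933 core lower genes with a promoter entry, 8.75% of the core higher genes and 9.87% of tested genes. The amino acid response element, searched as TGATGNAA, was found in 1.93% of the core lower genes and 1.13% of tested genes. No test was made of these shares.

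**Figure D3:**
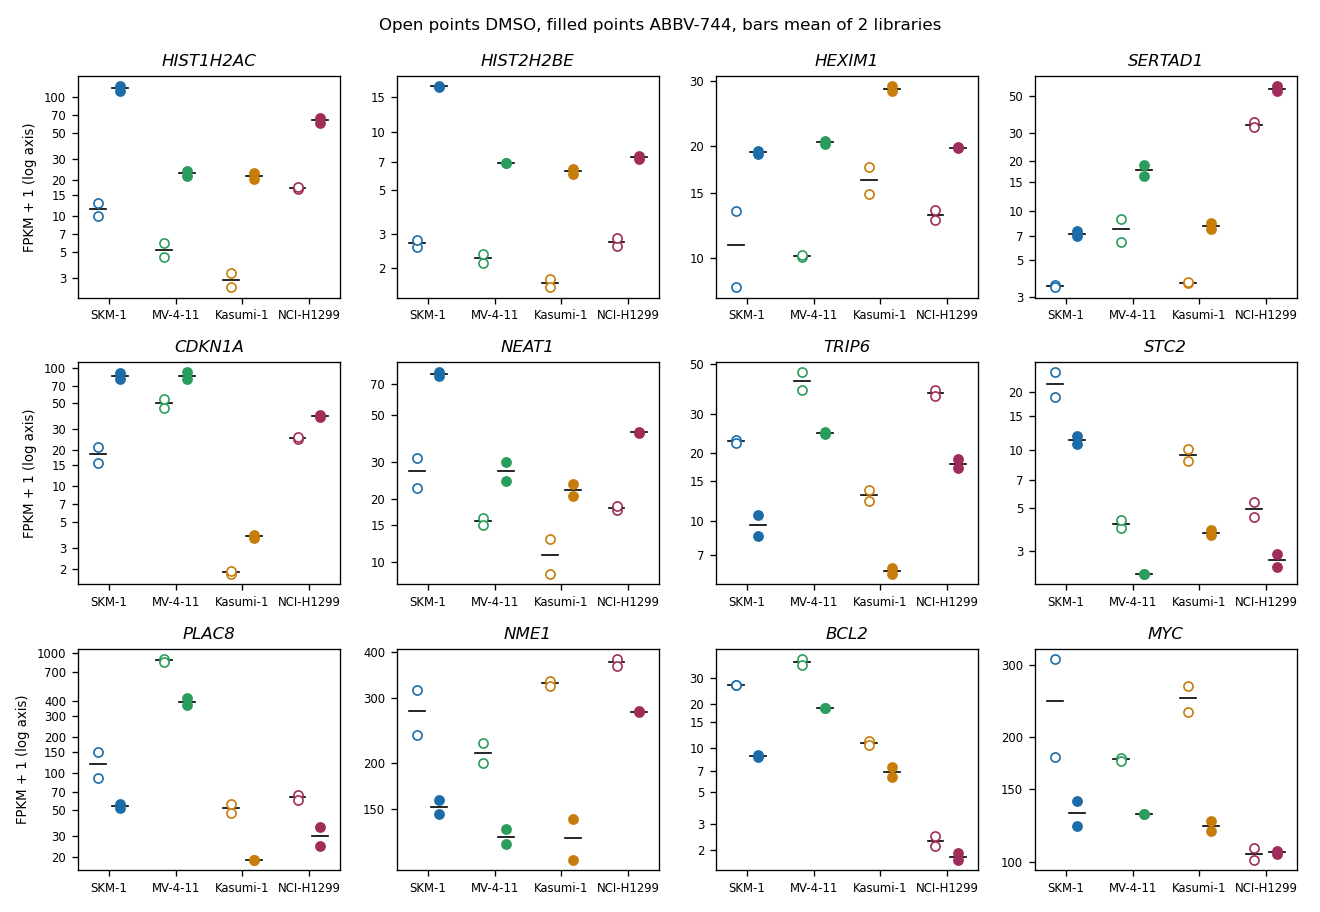
Level of 12 genes in each library as FPKM + 1 on a log axis, with DMSO libraries as open points, ABBV-744 libraries as filled points and bars at the mean of 2 libraries. In 11 of the panels the filled and open points do not overlap in any line, while the MYC points overlap in NCI-H1299.

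DNA replication genes passed in part. Of 37 tested genes of DNA replication and G1/S, 13 were core and lower, against 11.3% of tested genes, and none higher, with a median of -0.21, and the median was -0.62 in Kasumi-1 against -0.07 to -0.19 in the other lines. The count was 18 without the second SKM-1 DMSO library and 5 without Kasumi-1, where 1 other member was core and higher. POLE2 and POLA1, subunits of replicative polymerases, changed by -0.56 ± 0.10 (SE) and -0.46 ± 0.08, and the GINS subunits GINS3 and GINS1 by -0.51 ± 0.10 and -0.50 ± 0.09. All 4 had separate libraries in every line. Of 25 tested genes of homologous recombination and Fanconi repair, 7 were core and lower, including RAD51D (-0.60 ± 0.09) and FANCD2 (-0.38 ± 0.07), and 3 were without Kasumi-1. Of 37 tested mitosis genes only 1 was core, and it was lower, with a list median of 0.08. Of 7 tested G1 cyclins and kinases, CDC25A (-0.51 ± 0.09), the phosphatase that activates CDK2, was core and lower and separate in every line.

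Core genes on the lists of cholesterol synthesis and glycolysis were all lower. PGAM2, a core higher gene, is not on the glycolysis list. Of 22 tested genes of cholesterol synthesis, 7 were called lower and 1 was called higher, against 13.2% and 12.6% of tested genes. As core and lower 4 passed, against 11.3% of tested genes. The 4 were CYP51A1 (-0.67 ± 0.16, SE), DHCR7 (-0.58 ± 0.14), NSDHL (-0.39 ± 0.09) and EBP (-0.39 ± 0.09), and none was core without Kasumi-1. Without SKM-1 the list had 1 higher and 5 lower core genes. In MV-4-11 the median of this list was 0.21, against -0.59 in Kasumi-1. Of 18 tested glycolysis genes, 3 were core and lower, again against 11.3% of tested genes: the glucose transporter gene SLC2A1 (-0.44 ± 0.11), LDHA (-0.41 ± 0.09) and HK2 (-0.39 ± 0.08). Without the second SKM-1 DMSO library 7 were, and without Kasumi-1 only 1.

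Splicing factors gave core genes in both directions. Of 33 tested SR and hnRNP genes, SRSF5 (0.45 ± 0.10, SE) and SRSF6 (0.31 ± 0.07) were core and higher and 3 were core and lower, among them HNRNPA1 (-0.29 ± 0.08), against 11.0% and 11.3% of tested genes. Without the second SKM-1 DMSO library the list had 4 higher and 10 lower genes, and without Kasumi-1 it had none. Of 32 tested housekeeping genes, 4 were core and higher (POLR2A, B2M, VPS29 and EIF4A2, with 0.50, 0.42, 0.41 and 0.30) and 1 was core and lower, against the same 11.0% and 11.3%. None was core without Kasumi-1. None of 13 mitochondrial transcripts, 5 tested blood cell markers and 3 tested carcinoma markers was core, and no lymphocyte marker was tested. Without the second SKM-1 DMSO library, 1 mitochondrial transcript was core and higher, and 1 blood cell marker and 1 carcinoma marker were core and lower.

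**Figure D4:**
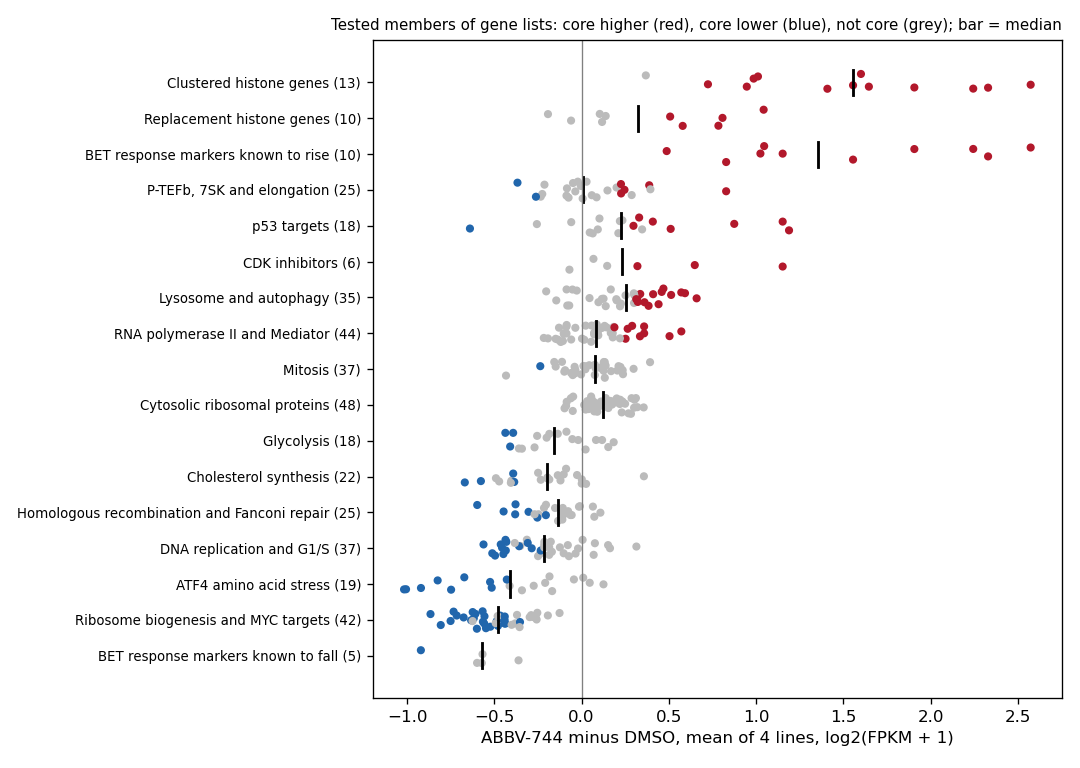
Mean difference between ABBV-744 and DMSO over 4 lines on the log2(FPKM + 1) scale for every tested member of 17 gene lists, with the number tested in parentheses. Red points are core higher genes, blue points core lower genes, grey points others, and black bars list medians, from 1.56 for clustered histone genes to -0.57 for the markers known to fall.

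The core lower genes had the higher levels in DMSO. The median DMSO level was 18.9 FPKM for core lower genes, 10.6 FPKM for core higher genes and 15.2 FPKM for tested genes. Median gene spans in RefSeq were 28254, 28030 and 29086 bp in the same order. Genes not annotated as protein-coding made up 4.55% of the core higher genes with a RefSeq match, 0.924% of the core lower genes and 3.57% of tested genes. These shares and medians were not tested. The DMSO level enters both the difference and the filter, so the DMSO medians are not independent of the choice of core genes.

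Genes at the border of the rule differed in size. Just inside the threshold were the higher genes MKRN1 (0.18, adjusted p = 0.0495) and TCFL5 (0.22, adjusted p = 0.0496) and the lower genes U2AF1 (-0.43, adjusted p = 0.0491) and NIPAL2 (-0.24, adjusted p = 0.0499). Just outside were PCBP2 (0.28), MAP2K3 (0.30), ZNF33A (-0.22) and SMA3 (-0.64), each with 1 sign in all lines. The 4 genes inside lost their call in 19 to 21 of the 30 or 31 alternative settings in which they were tested, most of them with 1 library left out. A total of 339 genes were called over the lines but did not have 1 sign in all 4.

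The response of a gene in the 3 leukaemia lines was also compared with that in NCI-H1299. The difference between the leukaemia mean and NCI-H1299 was called for 48 genes, or 0.488% of those tested, and 10 of these were core genes with a matched symbol. The count fell to 0 when either NCI-H1299 DMSO library was left out and reached 1207 and 805 without the first and the second SKM-1 DMSO library. The smaller medians of the core genes in NCI-H1299 were not tested in any other way.

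The same DMSO libraries were set against 100 nM ABBV-075 in the study. The doses differ and the DMSO libraries are shared, so values are only placed side by side, ABBV-744 at 200 nM before ABBV-075 at 100 nM. The medians were 0.37 and 0.71 for the core higher genes and -0.40 and -0.85 for the core lower genes. HIST1H2AC had 2.57 and 3.97, HEXIM1 0.83 and 2.37, SERTAD1 1.04 and 2.23, and CDKN1A 1.15 and 2.16. On the lower side NME1 had -0.87 and -3.01, BCL2 -0.92 and -1.92, STC2 -1.01 and -2.53, and PLAC8 -1.19 and -3.24. SCO2 had -1.03 and -1.01, PGAM2 0.98 and 0.95, and CDK9 0.39 and 0.47.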

How the data were processed

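Poly-A RNA libraries of 4 cell lines were compared, 8 with ABBV-744 and 8 with DMSO. The authors deposited a table of FPKM values. DESeq2 is named, with no role, by the submitters in their processing notes, and for the aligner, build and annotation the sources used here give no name. FPKM is not a count, so depth is unknown and no count test was run. Values were taken to log2(FPKM + 1) and fitted in R 4.3.3 with limma 3.58.1 (line and treatment as terms, 11 residual degrees of freedom, eBayes with trend and robust, statmod 1.5.0) for genes with at least 1 FPKM in 2 columns of each line. Line differences came from 8 group means. The fit was tested on simulated data. Genes were named by a rule: 13 fixed genes, the 20 largest rises and falls, the 10 largest in the weakest line, up to 4 core and 2 other members of each of 32 lists, and 2 genes on each side of the threshold in each direction. Some genes that the rule allows are not described here. The members and lists were chosen with earlier results of these data known. Alternatives changed the pseudocount, filter, scaling, model and threshold and left out each library or line in turn. Promoters were read from RefSeq, and Python 3.11.15 with matplotlib 3.10.9 drew the plots.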

Additional observations from a re-analysis of the deposited data

Results flagged for a closer look

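In 10 core genes the response differed between the mean of the leukaemia lines and NCI-H1299 in the limma fit, by a test of that difference itself. The difference, leukaemia mean minus NCI-H1299, was -1.10 for ALDH1L2, -0.75 for BCL2, -0.66 for CHCHD4, -0.78 for FAM216A and -0.60 for CTDSPL. On the log2(FPKM + 1) scale all of these fell further in the leukaemia lines. ALDH1L2 and BCL2 averaged only 1.16 and 1.30 FPKM in NCI-H1299 with DMSO, where this scale understates a change. BTN3A2 fell further in NCI-H1299, with a difference of 0.65. The higher genes CDKN2D, HIST2H2BE, RCBTB2 and TP53INP1 had 0.86, 0.62, 0.69 and 0.98, and rose further in the leukaemia lines. Adjusted p-values ran from 0.0112 for ALDH1L2 to 0.0498 for FAM216A, and leaving out either NCI-H1299 DMSO library left no gene called. BTN3A2, CHCHD4, CTDSPL, FAM216A and RCBTB2 lie outside the naming rule and were added after their values were seen.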

How the results depend on the processing

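The core counts of 1086 higher and 1112 lower genes moved with the threshold and the lines. They were 606 and 631 at an adjusted p under 0.01, and 17 and 4 where every line had to be called on its own. With at least 5 FPKM, 681 core genes were higher, 775 genes were called higher over the lines and 370 were separated and higher in every line. Without Kasumi-1, 622 core genes were lower, and 737 and 627 genes were called higher and lower. Separated lower genes numbered 1056 without SKM-1 and 987 without MV-4-11, and separated higher genes 942 without NCI-H1299. Leaving out each library gave 878 to 1348 core higher, 921 to 1622 core lower, 1016 to 1968 called lower, 589 to 910 separated lower and 0 to 1207 genes with a called response difference. The second SKM-1 DMSO library gave the highest counts in the first 4 of these. The settings for list counts and for response differences were chosen after seeing the data. All 109 core genes named in the text kept the sign of their mean difference over the lines in each setting that tested them. That was 31 settings for 75 genes and 30 for the 34 that did not reach the filter of 5 FPKM. In every one of their settings, 76 genes were called. Core membership, which also needs 1 sign in each line, was lost more often than the call in some genes. It was lost in 8 settings for POLR2A, 5 for CYP51A1, 4 each for SOCS2 and VPS29 and 3 for CDKN2D. Their calls were lost in 3, 1, 2, 2 and 1 settings in the same order. Without Kasumi-1, 28 of the 109 genes were not called, among them RAC3, POLR3G, GPATCH4, LYAR, NOP16, CYP51A1, DHCR7, LDHA and BCL2L1. Every setting without a line fitted fewer samples, and without SKM-1 the core held 1164 higher and 1481 lower genes. Why calls were lost was not tested. No paired analysis was possible because replicate numbers follow the order of accession. Depth is unknown, and values near 1 FPKM are the least certain.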
